A study of Peromyscus californicus with 17 samples.

Results

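Cardiac muscle transcripts in lung RNA are described here for 10 genes, chosen by symbol from the 27786 genes of the table: Myl7, Myl4, Sln and Nppa, which mark atrial muscle, Myl2 and Myl3, which mark ventricular muscle, and Actc1, Tnnt2, Tnni3 and Mb, which both kinds of chamber use. RNA was sequenced from the lungs of 17 male P. californicus, a monogamous deer mouse, with 1 library per animal. The 6 bonded males (B1 to B6) had lived with a partner for 4 months. The 6 bond-disrupted males (BD1 to BD6) had been paired for the same 4 months and were then taken from the mating cage, and lung was collected 7 days later. The 5 virgin males, named V2 to V6, matched the others in age and lived 3 to a cage. The labels give no treatment beyond this housing, and animals with the same number are relatives, so the comparisons asked whether bonding history moved these transcripts among related males.

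The sarcomere, the contractile unit of striated muscle, pulls thin filaments of actin, troponin and tropomyosin along thick filaments of myosin, and each myosin head carries an essential and a regulatory light chain. Atrial muscle uses Myl7 and Myl4 for these light chains, whereas ventricular muscle uses Myl2 and Myl3. In rodents the wall of the pulmonary veins holds a sleeve of cardiac muscle of atrial kind that continues from the left atrium into the lung.

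The deposited FPKM (counts divided by gene length and by library size) could not be compared between animals as they stood. Each column had been divided by the length of another gene, 1 row further up for the first column and 1 row more for each later column. Over the 17 columns the length that divided Actc1 ran from 129 to 15918 bases, where its own was 6496. All 10 members were recomputed with their own lengths, and every value below is on that scale unless said otherwise. Deposited Actc1 ran from 9.27 FPKM (BD2) to 802 FPKM (BD6), and with its own length it ran from 5.46 (B3) to 65.3 (B6). For Sln, whose product sarcolipin inhibits the calcium pump of the sarcoplasmic reticulum, the highest deposited value was 425 times the lowest, and the ratio was 18.4 with its own length. The animal with the highest value changed for 9 of the 10 members, all but Myl7. Across the pairs of the 7 abundant members (all but Nppa, Myl2 and Myl3), the median Pearson r over the 17 animals was 0.191 on deposited values and 0.929 on own-length values. These pairs come from the same 17 libraries, so the correlations are a description of them.

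**Figure D1:**
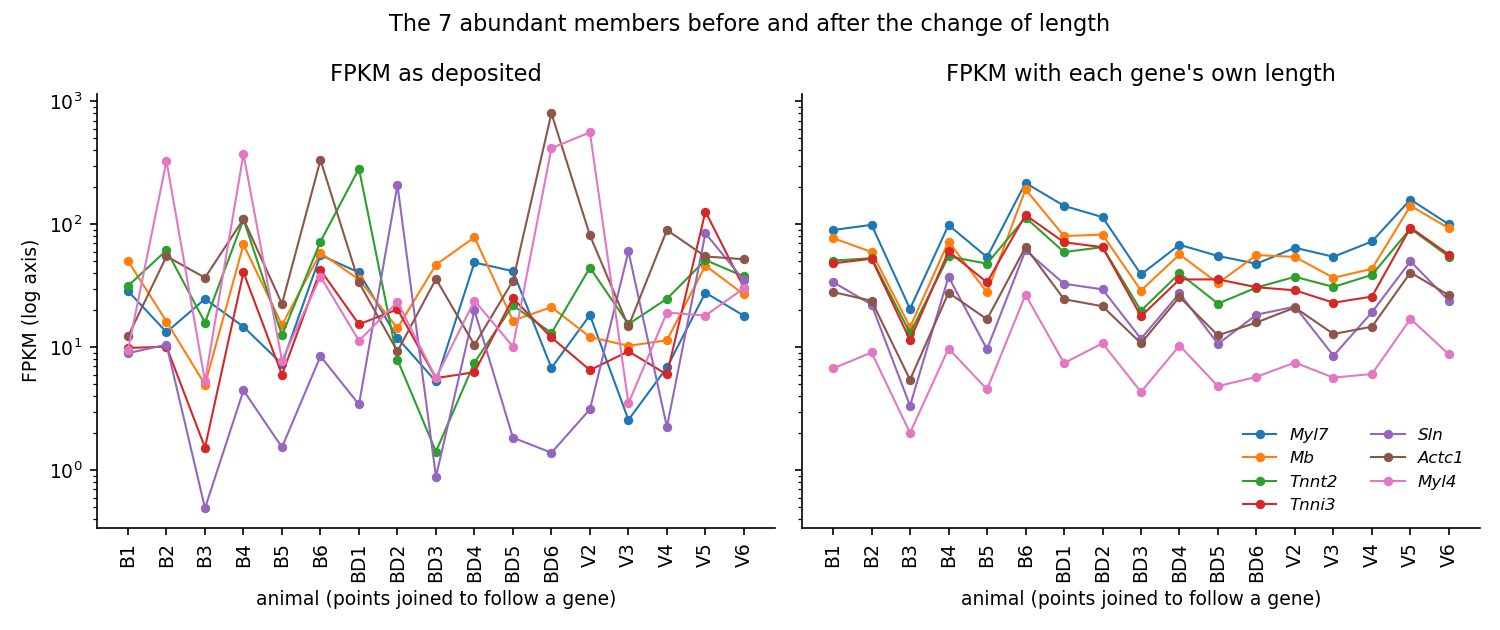
FPKM of the 7 abundant members in each of the 17 animals, on a shared log axis, as deposited (left) and with each gene's own length (right); lines join the values of 1 gene and mark no order of animals. On the left the genes cross from animal to animal, with Actc1 at 802 in BD6, and on the right they rise and fall together, all lowest in B3 and all highest in B6.

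Of 15068 genes tested, 0 were called in any of the 3 comparisons of groups, and library depth ran from 15.4 to 34.1 in units of 1000000 counts. The labelled tissue carried its markers: over the 17 animals the lowest value was 12001 FPKM for Sftpc and 1710 for Sftpb, of type 2 alveolar cells, and 1128 for Ager, of type 1 cells. B3, the deepest library, held the least cardiac muscle RNA, and B6 and V5 held the most, so the median difference of the members is also given without these 3 animals, an alternative added after seeing the data. Same-group libraries differed by far more than counting noise, with a chi-square of at least 25.2 per degree of freedom, and all were kept as separate samples.

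Myl7, the atrial regulatory light chain, was the most abundant member per length, at a mean of 88.1 ± 49.3 FPKM (SD, n = 17). In bonded males it had a lowest value of 20.6, a median of 94.4 and a highest of 218 FPKM. In bond-disrupted males the lowest, median and highest were 39.2, 61.8 and 142 FPKM, and the virgins had 64.5 (V2), 54.5 (V3), 72.7 (V4), 159 (V5) and 99.9 FPKM (V6). B3 was the lowest of all animals and B6 the highest, both of them bonded, so the bonded range enclosed every animal of the other groups. Myl4, the atrial essential light chain, ran from 2.01 FPKM in B3 to 26.7 in B6. Its medians were 7.91 in bonded, 6.60 in bond-disrupted and 7.52 FPKM in virgin animals, closer together than the animals within any group. The virgins had 7.52 (V2), 5.66 (V3), 6.07 (V4), 17.05 (V5) and 8.74 FPKM (V6) of Myl4, so that V5 stood above the other 4. Sln, which is enriched in atrial over ventricular muscle, ran from 3.35 (B3) to 61.6 FPKM (B6), an 18.4-fold range that was the widest among the 7 abundant members. Its medians were 28.1 in bonded and 23.0 FPKM in bond-disrupted males, and the virgins had 21.4 (V2), 8.55 (V3), 19.3 (V4), 50.1 (V5) and 23.9 FPKM (V6), again with V5 on top.

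Nppa, which encodes the atrial natriuretic peptide stored in atrial myocytes, was the scarce one among the atrial members. It held 1 to 51 counts per animal and 264 in all, and its FPKM ran from 0.0457 (BD3) to 2.61 (B4). The virgins had 9 (V2), 3 (V3), 1 (V4), 46 (V5) and 10 counts (V6), and bonded males had a median of 5 counts with 40 in B4 and 51 in B6. Per length it stood at 0.0519% to 2.64% of Myl7 in the same animal. Values from 1 to a few counts carry a large counting error, so the order of the low animals cannot be read. Corin, the protease that activates the peptide, peaked at 1.11 FPKM (BD6), and Nppb, the related peptide gene, at 0.715 FPKM (BD5).

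Actc1, the actin of cardiac thin filaments, held the most counts of the 10, with 54956 over the 17 animals, but its long gene model of 6496 bases gave it a mean of 23.2 ± 13.7 FPKM (SD, n = 17). Bonded males had a lowest value of 5.46, a median of 25.9 and a highest of 65.3 FPKM, and bond-disrupted males had 10.8, 18.7 and 25.7. The virgins had 21.0 (V2), 12.8 (V3), 14.7 (V4), 40.6 (V5) and 26.5 FPKM (V6). The order of animals was that of Myl7 at both ends, with B6 and V5 on top and B3 at the bottom. Its coding sequence is close to that of the skeletal and smooth muscle actins, and how the authors counted reads matching several genes is not given in the sources used here.

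Tnnt2 and Tnni3, cardiac troponin T and troponin I of the switch that makes contraction depend on calcium, had means of 48.6 ± 25.4 and 47.7 ± 28.3 FPKM (SD, n = 17). Tnnt2 had a lowest value of 13.0, a median of 51.9 and a highest of 114 FPKM in bonded males, and 19.9, 35.3 and 65.3 FPKM in bond-disrupted males. The virgins had 37.5 (V2), 31.0 (V3), 38.8 (V4), 92.4 (V5) and 54.5 FPKM (V6). All but B3 and B6 of the bonded males lay in a narrow band for Tnnt2, from 47.9 (B5) to 54.96 FPKM (B4). Tnni3 had a lowest value of 11.5, a median of 50.4 and a highest of 119 FPKM in bonded males and 17.9, 35.7 and 71.6 FPKM in bond-disrupted males, again with the bonded range enclosing the other. Tnni3 held fractional counts, as reads split between overlapping genes give, in 10 animals, Myl4 in 6, Tnnt2 in 2, Actc1 and Myl3 in 1 each, and the other 5 members in 0. Mb, myoglobin, the oxygen store of red and cardiac muscle, averaged 67.8 ± 44.3 FPKM (SD, n = 17) and ran from 14.6 (B3) to 193 (B6). Its virgin values were 54.4 (V2), 36.8 (V3), 43.6 (V4), 142 (V5) and 93.0 FPKM (V6).

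The ventricular members were scarce beside the atrial light chains. Myl2, the ventricular regulatory light chain, held 10 counts over all 17 animals, with 1 in B2, 2 in B6, 1 in BD1, 1 in BD6, 1 in V3, 4 in V5 and 0 in the other 11 animals. Myl7 had 16672 counts in the same libraries. Per length, Myl7 stood 1757-fold above Myl2 over all animals, with a 95% exact Poisson interval on the Myl2 counts giving 955-fold to 3664-fold, which covers counting error only. A count of 0 allows up to 0.161 FPKM of Myl2 in the deepest library and up to 0.356 FPKM in the shallowest.

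Myl3, the ventricular essential light chain, which slow skeletal muscle also uses, held 263.5 counts in all, and Myl7 stood 99.8-fold above it per length. Bonded males had 4 to 21 counts with a median of 14.5, bond-disrupted males had 0 to 70 with a median of 14.5, and the virgins had 20 (V2), 11 (V3), 10 (V4), 11 (V5) and 6 counts (V6). The highest was BD4, with 2.88 FPKM, and the lowest was BD2, with 0 counts. B6, the animal richest in the abundant members, had 1.13 FPKM of Myl3, below BD4 and below B4 (1.35 FPKM).

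**Figure D2:**
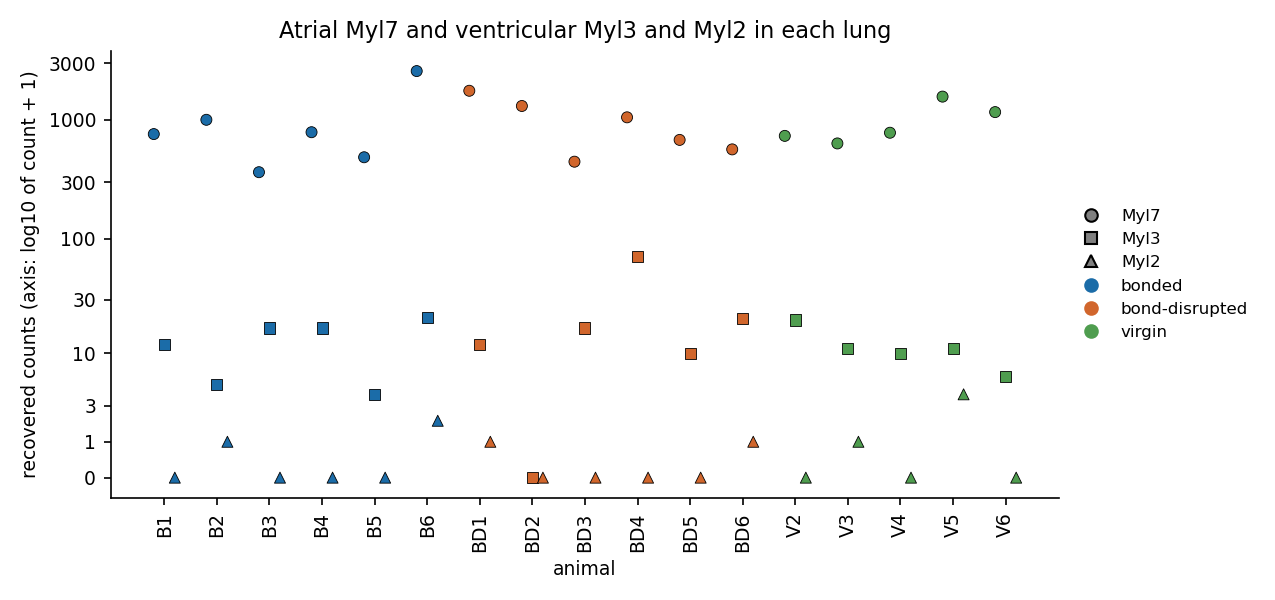
Recovered counts of atrial Myl7 (circles), ventricular Myl3 (squares) and ventricular Myl2 (triangles) in each of the 17 lungs, coloured by group, on an axis of log10(count + 1). Myl7 lies between 364 and 2572 counts in every animal, Myl3 between 0 and 70, and Myl2 between 0 and 4.

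By mean FPKM per own length the order was Myl7, Mb, Tnnt2, Tnni3, Sln, Actc1, Myl4, Myl3, Nppa and Myl2. Myl7 exceeded Mb, and Mb exceeded Tnnt2, in 16 of 17 animals, and Tnni3 exceeded Sln in all 17. Tnnt2 and Tnni3 differed by 0.07 ± 0.29 on the log2 scale (mean ± SD of the within-animal difference, n = 17) and could not be ordered. The same held for Sln over Actc1, with 0.01 ± 0.37, and for Myl3 over Nppa, with 0.12 ± 0.69. Myl4 lay below Actc1 and above Myl3 in all 17 animals. The gene lengths weigh on this order: by counts, which are not per length, it began with Actc1, Myl4 and Mb, since the gene models of Actc1 and Myl4 (7756 bases) are several times longer than those of the others (519 to 1176 bases).

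**Figure D3:**
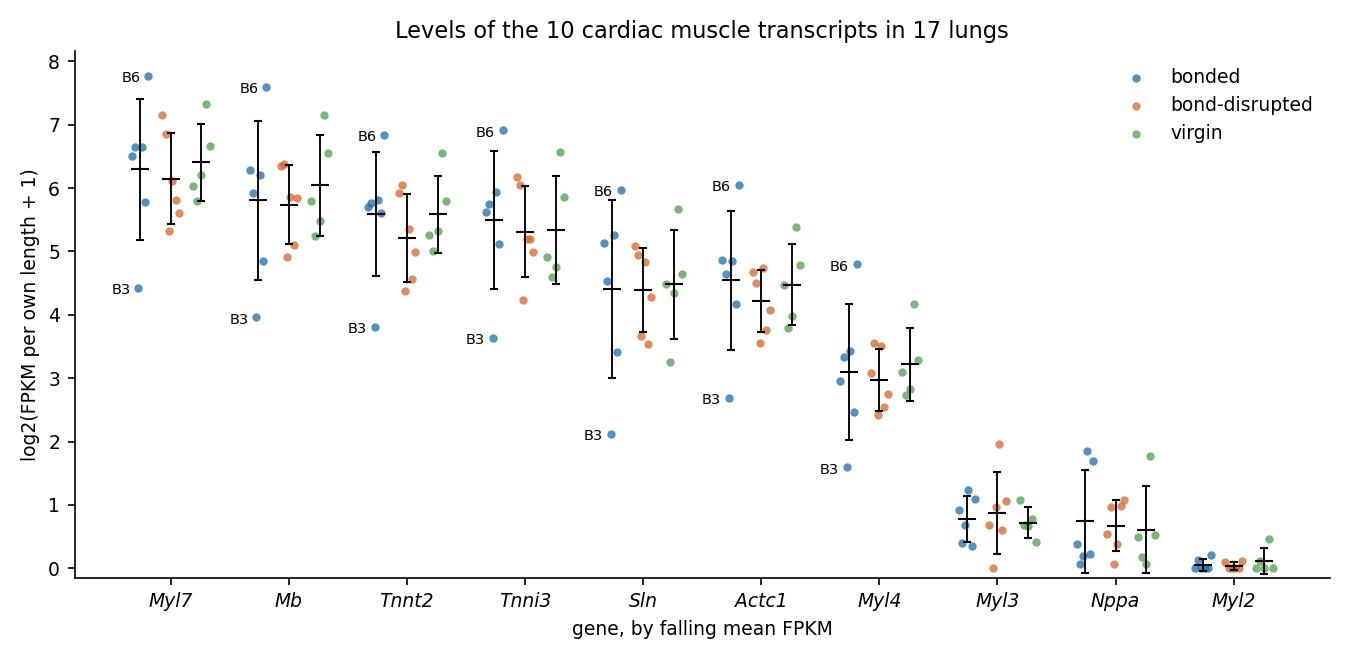
Level of each of the 10 members as log2(FPKM per own length + 1) in bonded, bond-disrupted and virgin males; each point is 1 animal, the bar is the group mean and the whiskers are 1 SD. The 7 genes on the left spread widely within each group, with B6 highest and B3 lowest, whereas Myl3, Nppa and Myl2 lie at or below 2.88 FPKM.

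The 7 abundant members rose and fell together from lung to lung. Over the 17 animals, the 21 pairs had Pearson r from 0.885 to 0.965 and Spearman rho from 0.806 to 0.941 on log2(FPKM + 1). Without the 2 animals farthest from the median of the first gene of a pair, r ran from 0.775 to 0.934, and after each animal was set against its group mean it ran from 0.897 to 0.975. B6 was the highest and V5 the next highest for all 7 genes, and B3 was the lowest for all 7. Relative to the median animal, the 7 genes averaged 1.56 in B6, 1.12 in V5 and -1.82 in B3 on the log2 scale. B4 and V6 lay above the median for all 7, and B3, B5, BD3, BD5, BD6, V3 and V4 lay above it for 0 of them.

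Nppa followed this pattern less closely, with r from 0.556 to 0.679 and rho from 0.510 to 0.716 against the 7. Myl3 did not follow it, with r from -0.06 to 0.24 and rho from -0.02 to 0.38. Myl2, at 0 in most animals, had r from 0.448 to 0.580 and rho from 0.298 to 0.433, and its 2 highest counts were in V5 and B6. The spread of the 7 over all animals was large for this table: the SD of log2(FPKM + 1) ran from 0.72 (Myl4) to 0.97 (Sln), above that of 96.8% to 98.6% of the 15068 genes tested, where the median gene had an SD of 0.21.

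Bond-disrupted and bonded males were compared first, the question being whether loss of the partner changed these transcripts. Of the 9 members tested, 0 passed the test (limma, adjusted p under 0.1 and at least 2-fold), as for the whole table, where 0% of genes were called. Myl2 stayed under 1 FPKM in every animal and was not tested. At an unadjusted p under 0.05, 0 of the 9 members passed, against 5.88% of all genes tested, and the groups overlapped for all 9, where 0.265% of genes did not overlap. Mean Myl7 was 77.8 ± 41.0 FPKM in bond-disrupted (SD, n = 6) and 96.7 ± 66.8 FPKM in bonded males (SD, n = 6), and the log2 difference was -0.15 ± 0.46 (SE, adjusted p = 0.975 by limma). Its 95% interval ran from -1.12 to 0.82, so that a change of 2-fold downwards lay inside it. Tnnt2 had the largest difference of the 9, at -0.38 ± 0.42 (SE, limma adjusted p = 0.912), with an interval from -1.27 to 0.52, and it was -0.73 without B3 and -0.13 without B6. Actc1 differed by -0.32 ± 0.43 (SE, limma adjusted p = 0.936). Of the 10 members, 9 had a lower mean in bond-disrupted males and Myl3 a higher one, and the median difference was -0.10, beside 0.01 over all genes tested. In bulk RNA, fewer muscle cells and less RNA per cell cannot be told apart, and these values are on log2(FPKM + 1), which understates differences of low genes. The sign of 3 members depended on the scale: on log2(FPKM + 0.1) and by voom on recovered counts, Nppa differed by 0.13 and 0.28, Sln by 0.018 and 0.25, and Myl3 by -0.047 and -0.20.

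Virgins were then set against bonded males, the groups that had not lost a partner. Again 0 of 9 members passed at an adjusted p under 0.1 and 2-fold, or at an unadjusted p under 0.05, against 0% and 3.72% of all genes, and all 9 overlapped, where 0.465% of genes did not. The difference of Myl7 was 0.11 ± 0.48 (SE, limma adjusted p = 1), with a 95% interval from -0.91 to 1.12. Mb had the largest difference, 0.24 ± 0.53 (SE, limma adjusted p = 1), and an interval from -0.88 to 1.36. Tnnt2 differed by -0.0027 ± 0.44 (SE, limma adjusted p = 1). On log2(FPKM + 1), 5 of the 10 members were higher and 5 lower in virgins, with a median difference of 0.03. On the FPKM scale the mean was lower in virgins for 9 of the 10, with 90.2 against 96.7 for Myl7 and 73.8 against 74.1 for Mb, and higher for Myl2, so no direction can be read.

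Between virgin and bond-disrupted males, 0 of 9 members passed either threshold, against 0% and 4.28% of all genes, and all 9 overlapped, where 0.272% of genes did not. Tnnt2 had the largest difference, 0.37 ± 0.44 (SE, limma adjusted p = 0.945), with means of 50.9 FPKM in virgin and 39.7 FPKM in bond-disrupted males. Mb differed by 0.30 ± 0.53 (SE, limma adjusted p = 0.957) and Myl7 by 0.26 ± 0.48 (SE, limma adjusted p = 0.959). Without V5 these differences were 0.13 for Tnnt2, 0.027 for Mb and 0.026 for Myl7. On log2(FPKM + 1), 8 of the 10 members were higher in virgins and Nppa and Myl3 were lower, with a median difference of 0.17, and on the FPKM scale the mean of Nppa was also higher in virgins, at 0.694 against 0.640. The 3 comparisons share their groups, so their directions are not independent of each other.

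**Figure D4:**
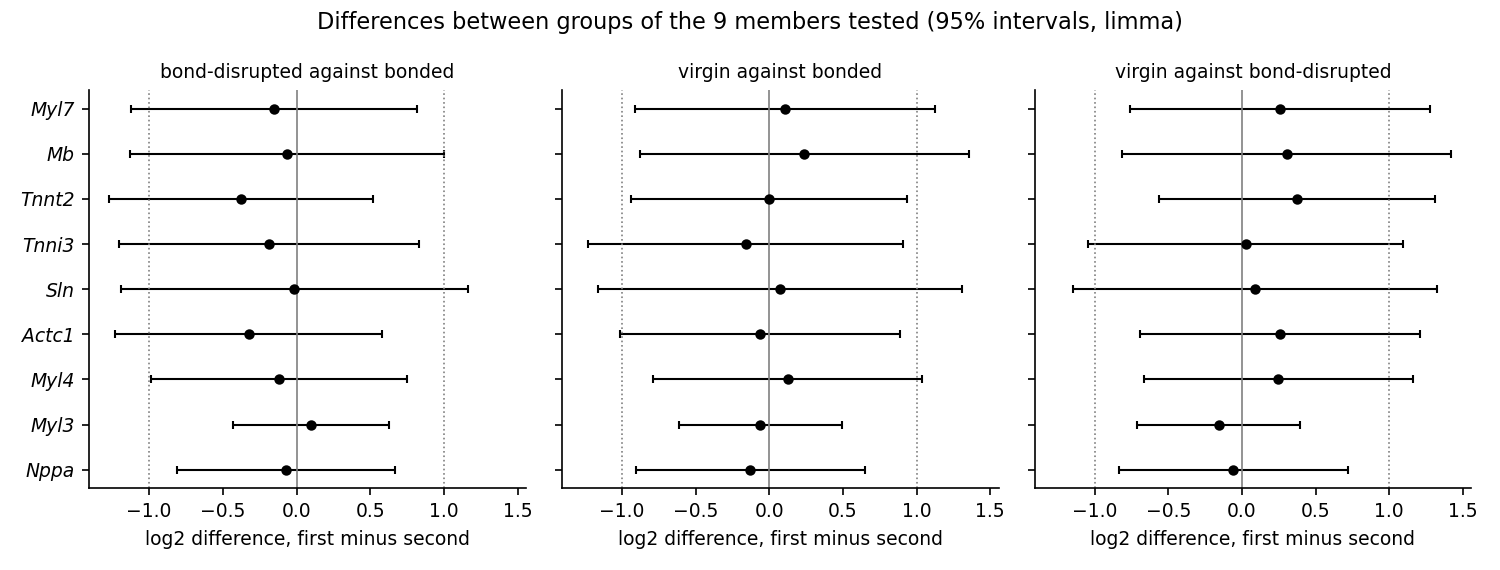
Log2 difference between groups of the 9 members tested, on log2(FPKM per own length + 1), as the limma estimate (points) with its 95% interval (bars); dotted lines mark 2-fold. Every interval includes 0, and the intervals of Sln reach past 2-fold in both directions in all 3 comparisons.

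The B3, B6 and V5 lungs set much of the size and sign of these differences. Without B6 the median difference of the 10 members between bond-disrupted and bonded males was 0.13 rather than -0.10, and without B3 it was -0.45. With all 3 animals left out, the medians were -0.14 for bond-disrupted against bonded, -0.27 for virgin against bonded and 3.63e-06 for virgin against bond-disrupted, and 0 members passed the test. The atrial members averaged 3.22 ± 0.90 above the ventricular ones in bonded, 3.09 ± 0.62 in bond-disrupted (SD, n = 6 each) and 3.26 ± 0.59 in virgin males (SD, n = 5) on the log2(FPKM + 1) scale. This gap was 1.74 in B3, the lowest, and 4.41 in B6, the highest. The ventricular mean lay between 0 and 0.98 on this scale, where the added 1 FPKM compresses low values, so the gap largely restates the atrial level. The groups differed by less than the within-group SD of 0.72. The differences were -0.13 for bond-disrupted against bonded, 0.04 for virgin against bonded and 0.17 for virgin against bond-disrupted males. As unweighted means of log2 recovered counts scaled by depth, they were 0.33, -0.02 and -0.35. These include Myl2, which the voom fit left out. Without B3 or B6 the first was -0.42 or 0.11 on log2(FPKM + 1), so no direction can be read from these differences.

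Other cardiac genes, taken from lists by function, showed which part of the muscle programme the lungs held. Of 23 other sarcomere genes recovered, 19 reached 1 FPKM in some animal, and 16 of the 18 with a mean of at least 1 FPKM had r over 0.5 with Myl7, against 6.71% of all such genes. Tnnc1, cardiac and slow skeletal troponin C, had the highest r with Myl7 of all non-members (r = 0.970, rho = 0.936, n = 17) and ran from 4.38 FPKM in its lowest animal to 46.9 in B6. The most abundant of this list, Cryab (177 FPKM on average), Tpm1 (120 FPKM) and Des (98.2 FPKM), are used by other muscle and non-muscle cells too, and had r of 0.623, 0.725 and 0.595, or 0.54, 0.64 and 0.40 without the 2 animals farthest from the median of Myl7. Actn2, Mybpc3 and Myom2 of the Z disc, the thick filament and the M band had r of 0.881, 0.800 and 0.806. None of these lists gave a gene called in any group comparison, where 0% of all genes were called.

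The 10 non-members most like Myl7 over the 17 animals were Tnnc1, Myoz2, LOC128094779, Ckm, Hspb6, Smpx, Ckmt2, Csrp3, Ldhb and Eno3, with r from 0.888 to 0.970 among 13381 genes compared. Of these, Myoz2, Smpx and Csrp3 encode proteins of the Z disc and costamere, and Ckm and Ckmt2 are the muscle and mitochondrial creatine kinases, which buffer ATP. Hspb6 is a small heat shock protein of muscle, Ldhb the lactate dehydrogenase subunit of heart, and Eno3 the muscle enolase. B6 was highest for all of them but LOC128094779 and Csrp3, which were highest in V5. All 7 genes recovered from the cardiac metabolism list, which also holds Hrc, had r over 0.5 with Myl7, and the most abundant were Fabp3 (23.9 FPKM on average), Ldhb (17.7) and Ckmt2 (5.04).

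Calcium handling split by gene. Pln, phospholamban, and Hrc, a calcium-binding protein of the sarcoplasmic reticulum, had r of 0.846 and 0.878 with Myl7, and 4 of the 11 genes of this list at a mean of 1 FPKM or more had r over 0.5. The most abundant, Atp2a2 (74.1 FPKM on average), Gja1 (46.9) and Gja5 (43.2), had r of 0.564, -0.35 and 0.30. Without the 2 animals farthest from the median of Myl7, the r of Atp2a2 was 0.117. Casq2, the cardiac calsequestrin that stores calcium in the sarcoplasmic reticulum, averaged 15.9 FPKM, was highest in V4 and had r of -0.0087. Ryr2, the cardiac calcium release channel, reached 2.19 FPKM, in B6.

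Of the further chamber markers, 7 atrial and 3 ventricular genes had a mean of at least 1 FPKM. Bmp10, of the right atrium, peaked at 0.0347 FPKM in B6, and Irx4, of the ventricle, at 0.0378 FPKM in V6. Among other genes enriched in atrium, the most abundant were Pam (76.7 FPKM on average), Stard10 (43.9) and Gja5, which other lung cells express, and 2 of 7 had r over 0.5 with Myl7, Pam with 0.546 and Nr2f2 with 0.589. Without the 2 animals farthest from the median of Myl7 these were 0.123 and 0.537. Among those of ventricle, Irx2 (15.4 FPKM), Irx1 (13.4) and Hey2 (4.01), also found outside the heart, had r of 0.149, -0.06 and 0.532. Nkx2-5, a cardiac transcription factor, peaked at 1.15 FPKM in B6. The most abundant of the listed transcription factors were Mef2a (39.6 FPKM), Gata6 (26.7) and Mef2c (7.68), whose r with Myl7 ran from -0.09 to 0.20, whereas Ankrd1, a cardiac ankyrin repeat protein of the same list, had r of 0.879.

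**Figure D5:**
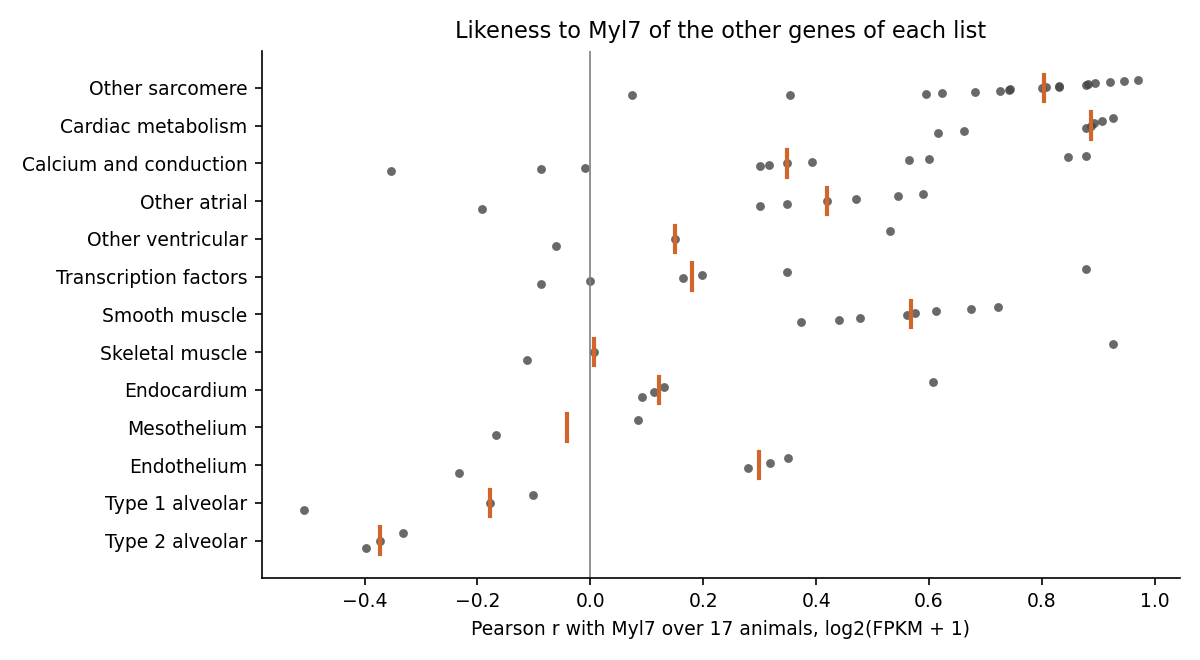
Pearson r with Myl7 over the 17 animals, on log2(FPKM + 1), of the other genes of each list with a mean of at least 1 FPKM; each point is 1 gene and the orange bar is the median of its list. Other sarcomere and metabolic genes lie mostly above 0.5, smooth muscle genes lie between 0.373 and 0.722, and alveolar genes lie below 0.

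Markers of other tissues were looked at beside these values. Of 12 skeletal muscle genes recovered, 8 stayed below 1 FPKM in every animal, among them Tnnt3, Tnnc2, Pvalb and Atp2a1, and the summed list ran from 3.47 to 9.97 FPKM in bonded, 4.29 to 25.5 in bond-disrupted and 4.66 to 6.56 in virgin animals. The highest sum was BD6, where Acta1 stood at 21.4 FPKM, and the 7 abundant members lay above the median animal for 0 of 7 there. Of the scarce ones, Nppa was higher in BD6, at 1.10 FPKM, than in any other bond-disrupted male, and Myl3 also stood at 1.10 FPKM. Smooth muscle genes moved with the members in part: the 8 recovered had r from 0.373 to 0.722 with Myl7, and from 0.037 (Synpo2) to 0.566 (Actg2) without the 2 animals farthest from the median of Myl7. Their sum was highest in B6, at 1559 FPKM, against medians of 1176 in bonded, 826 in bond-disrupted and 960 in virgin males. Between bond-disrupted and bonded males 5 of these 8 had an unadjusted p under 0.05 (Myl9, Myh11, Acta2, Synpo2 and Actg2, each lower in bond-disrupted males), against 5.88% of all genes, and 0 passed the adjusted threshold. B6 also had the lowest sums of type 2 alveolar genes, of type 1 alveolar genes, and of 4 endothelial genes among the bonded males. Scgb1a1 of club cells had r of 0.639 with Myl7, or 0.485 without the 2 farthest animals, and was lowest in B3. Thymus genes stayed below 1 FPKM in every animal, and squamous epithelial genes summed to at most 4.06 FPKM (V6). Cartilage genes summed to at most 2.78 FPKM apart from BD6, where Col2a1 alone stood at 14.2 FPKM. Mesothelial, fat, Schwann cell, erythroid, endocardial and endothelial genes had median r from -0.04 to 0.30 with Myl7, although Plvap of the endocardial list had r of 0.608, and 0.587 without the 2 farthest animals. The part of any of these tissues in the differences between lungs was not tested.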

How the data were processed

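Lung RNA of 17 animals was sequenced from directional libraries. The authors deposited 1 table of FPKM values, 27786 genes by 17 columns, 1 column per animal, with 0 columns left over. The submitters' processing notes name FastQC, Trim Galore 0.4.5, STAR 2.7.2, SAMtools 1.5 and featureCounts of Subread 1.5.3; the genome build, the strand setting and the treatment of reads matching several genes are not given in the sources used here. Groups came from the labels, and family numbers from the study's text: same-numbered animals are siblings, except that 2 virgins, V3 among them, are cousins of theirs.

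Within each column, FPKM times length times depth gave counts only when the length was taken 1 row further up for each column. Depths and lengths were solved together from this, as 27043 of 27787 lengths, with 196 not used and 473 without a value to solve from. A further step rescaled 2331 lengths by a simple factor, where their values lay far from the median animal of each gene. Of 309040 values under 2000 counts, 81.5% came out whole, 17.1% ended in 0.5 and 1.28% in another simple fraction, within 0.01 of a count. The search chose the lengths that left the fewest values off a multiple of 0.5, so these shares describe the fit and do not test it. The scale of the depth follows from the fractions, although whether a count is a read or a fragment is not known. Of 1479 small RNA lengths 1461 equalled the RefSeq length (ASM782708v3, used for names and lengths only, with 0 coordinates given). The depths were first set from the RefSeq lengths of small RNA genes, so this match is not an independent check. The median SD of log2 FPKM over 12496 genes of at least 100 counts was 1.53 as deposited and 0.215 with own lengths. The rescaling moved values towards the median animal, so part of this fall may be built in. Counting intervals cover counting error only, and depth sets the precision of the scarce members.

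FPKM with each gene's own length was taken as log2(FPKM + 1) for genes of at least 1 FPKM in at least 1 animal (15068 of 26070 recovered). Comparisons used limma 3.58.1 in R 4.3.3, 3 groups in one fit, two-sided, Benjamini-Hochberg adjusted, and genes were called at 2-fold or more with an adjusted p under 0.1. On simulated data for bond-disrupted against bonded (15068 genes), 175 of 200 genes changed 2-fold and 199 of 200 changed 4-fold passed the adjusted threshold. The changed genes were drawn from those with a mean log2(FPKM + 1) over 2, each with its own within-group SD. Over all animals the median gene tested had an SD of 0.21 and the 7 abundant members had 0.72 to 0.97. The shares therefore do not apply to these 7 members. Alternatives were the deposited values, an additive removal of the diagonal effect, pseudocount 0.1, a filter on the mean or none, a median-ratio factor, voom on recovered counts of genes with a mean of 10, a fit of only the 2 groups compared, limma with a trend, the family number as a block, adjusted p under 0.05, and leaving out each animal or, added after seeing the data, B3, B6 and V5. Python 3.11.15, numpy 2.4.6, scipy 1.17.1, pandas 2.3.3, numba 0.67.0 and matplotlib 3.10.9 were used.

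The members and all gene lists were chosen with earlier results of these data known. Named were the 10 members, the 3 most abundant genes of each cardiac list, the 10 genes most like Myl7 and Myl2, and any gene called where at most 5 were. Other genes named (such as Actn2, Mybpc3, Myom2, Pln, Hrc, Casq2, Ryr2, Nr2f2, Ankrd1, Corin, Nppb, Bmp10, Irx4, Nkx2-5, and tissue markers) were picked from the lists after their values were seen. Some genes that the rule names are not reported here. Genes of the lists without all 17 values recovered were not analysed here. Authors' comparisons were not used.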

Additional observations from a re-analysis of the deposited data

Results flagged for a closer look

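Dixon's criterion at 95% was applied to 33 groups of values, each member and the atrial minus ventricular level in each bonding group. By it, 5 samples stood far from the rest of their group. For normally distributed values it flags about 1 group in 20 by chance. Members were judged on FPKM. On log2(FPKM + 1) high values lie closer to the rest, so these flags can depend on the scale. B6 was set apart among bonded males for Myl4, at 26.7 FPKM where the other 5 ran from 2.01 to 9.77 FPKM, and for Mb, at 192.8 FPKM against 14.6 to 77.3 FPKM. V5 was set apart among virgins for Myl4, at 17.05 FPKM where the others ran from 5.66 to 8.74 FPKM. The same animal was set apart for Nppa, at 2.43 FPKM against 0.0484 to 0.447 FPKM, and for Myl2, at 0.385 FPKM against 0 to 0.0815 FPKM, the last of which rests on 4 counts. The members share their animals, so these are 2 lungs rather than 5 separate events.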

How the results depend on the processing

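The count of genes called was 0 in all 3 comparisons and under most alternatives, with 886, 561 and 645 genes at an unadjusted p under 0.05 (limma; bond-disrupted against bonded, virgin against bonded, virgin against bond-disrupted, the order kept below). The deposited FPKM gave 40, 113 and 35 genes, with 0 members among them, and additive removal of the diagonal effect gave 7 for virgin against bonded. Leaving out 1 animal gave 0 to 1 genes in each comparison. LOC128094431 was lower than in bonded males without B4 (log2 difference -1.01 for bond-disrupted and -1.21 for virgin males), and Wwc3 was lower in virgins without V2 (-1.34 against bonded and -1.41 against bond-disrupted).

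No member was called in any of 774 alternative values (limma adjusted p at least 0.741). Some of the 774 cannot change a difference: those with another filter, trend or threshold, or a fit of only the 2 groups compared. Leaving out an animal of the group not compared cannot change it either. Of the 774 values 100 had the other sign, all for differences of at most 0.30 on the log2 scale, and the cause was not tested. With the deposited FPKM these were 0.58 (Sln), 0.31 (Nppa), 0.093 (Tnni3) and 0.20 (Mb) for bond-disrupted against bonded, -0.74 (Myl7), -0.26 (Myl4), 0.15 (Nppa), 0.56 (Tnni3), -0.49 (Mb) and 0.40 (Myl3) for virgin against bonded, and -0.65 (Myl7), -0.70 (Mb) and 0.40 (Myl3) for virgin against bond-disrupted. With additive removal they were 0.0085 (Myl4), 0.028 (Tnni3) and 0.0061 (Mb), then -0.12 (Sln), 0.24 (Tnnt2) and 0.22 (Tnni3), then -0.051 (Sln). Pseudocount 0.1 gave 0.018 (Sln), 0.13 (Nppa) and -0.047 (Myl3), then 0.0026 (Tnnt2). The voom fit gave 0.25 (Sln), 0.28 (Nppa) and -0.20 (Myl3), then 0.025 (Tnnt2), then 0.13 (Myl3). Without B3, B6 and V5 they were 0.034 (Nppa), then -0.22 (Myl7), -0.063 (Myl4), -0.40 (Sln) and -0.052 (Mb), then -0.21 (Sln) and -0.28 (Tnni3).

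Leaving out 1 animal in turn gave, for bond-disrupted against bonded, -0.52 to 0.14 (Myl7), -0.42 to 0.22 (Myl4), -0.47 to 0.30 (Sln), -0.20 to 0.15 (Nppa), -0.70 to -0.023 (Actc1), -0.73 to -0.13 (Tnnt2), -0.56 to 0.10 (Tnni3), -0.43 to 0.29 (Mb) and -0.12 to 0.27 (Myl3). For virgin against bonded the ranges were -0.27 to 0.40 (Myl7), -0.17 to 0.47 (Myl4), -0.38 to 0.39 (Sln), -0.42 to 0.094 (Nppa), -0.44 to 0.24 (Actc1), -0.36 to 0.25 (Tnnt2), -0.53 to 0.12 (Tnni3), -0.13 to 0.60 (Mb) and -0.15 to 0.031 (Myl3). For virgin against bond-disrupted they were 0.026 to 0.46 (Myl7), 0.008 to 0.37 (Myl4), 0.034 to 0.43 (Actc1), 0.13 to 0.54 (Tnnt2), 0.027 to 0.51 (Mb), -0.21 to 0.40 (Sln), -0.35 to 0.078 (Nppa), -0.28 to 0.21 (Tnni3) and -0.33 to 0.057 (Myl3). B3 and B6 set the ends of most ranges that involve bonded males, and leaving out V5 gave the lowest value of every member tested but Myl3 for virgin against bond-disrupted.

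With the family number as a replicate block, 0 genes were called in each comparison, and 2 members changed sign for virgin against bonded, 0.013 (Actc1) and 0.079 (Tnnt2). Each animal's departure from its group mean was correlated between same-numbered animals: 6 of 16 pairs exceeded r = 0.1 (r from -0.32 to 0.40), 5 of them among the 6 bonded and bond-disrupted pairs. Depth limits Nppa, Myl3 and Myl2, whose counts reached 51, 70 and 4 at most.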

Other observations

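The animals numbered 3 were at the bottom of their groups. Of the 7 abundant members, B3 was the lowest bonded male for 7, BD3 the lowest bond-disrupted male for 6 and V3 the lowest virgin for 7. On average over the 7 genes these animals lay at -1.85, -0.78 and -0.73 from their group means on the log2(FPKM + 1) scale. V3 is a cousin of the other 2, which are siblings. Bonded and bond-disrupted siblings lay on the same side of their group means for numbers 1 (0.26 and 0.64), 2 (0.19 and 0.62), 4 (0.41 and 0.23) and 5 (-0.54 and -0.50) too, but not for 6 (1.53 and -0.21). The virgins numbered 2, 4 and 5 lay on the other side (-0.21, -0.38 and 1.04), and V6 lay at 0.29. This was noticed in the data and was not tested.

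In a search made after the values were seen, the 10 genes most like Myl3 over the 17 animals, among 13381 genes, were Wdr11, Plcg2, Spib, Ms4a1, Cd79b, Ctse, Cd22, Blk, Pax5 and Dhx29, with r from 0.768 to 0.851. Plcg2 encodes a phospholipase, Cd79b a subunit of the B cell receptor, Pax5 a transcription factor and Ctse the protease cathepsin E. Like Myl3, 7 of the 10 were highest in BD4, all but Cd22, Blk and Dhx29. Without the 2 animals farthest from the median of Myl3, their r ran from 0.548 (Pax5) to 0.711 (Plcg2). Myl3 had at most 70 counts in a library, so its own counting error is large. Its r with the 7 abundant members ran from -0.06 to 0.24, and which cells its counts came from was not tested.

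Among the genes most like Myl2 were Chpf, Rexo2, Xg, Crybb2, Wasl, LOC128097512, Chchd10, Nanp and Mansc1, with r from 0.682 to 0.799. Of these 9 genes 7 were highest in V5, which held 4 of the 10 counts of Myl2, and without the 2 animals farthest from its median their r ran from -0.13 (Xg) to 0.787 (Mansc1).

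Several genes of the lists stood apart in BD6: Col2a1 of cartilage stood at 14.2 FPKM, Acta1 of skeletal muscle at 21.4 FPKM and Nr2f1, from the list of other atrial genes, at 17.5 FPKM, each the highest of the 17 animals. The medians over the 17 animals were 0.0276, 0.236 and 1.60 FPKM. Isl1, a transcription factor of the list of cardiac factors, reached 1.32 FPKM in BD6, against a median of 0.0476. The 7 abundant members of BD6 lay 0.35 below the median animal on the log2 scale, on average.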
